A study of Mus musculus with 6 samples.

Results

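The genes described here are the protein-coding Hox genes of the 4 mouse clusters and the Tbx, Gata and Pax genes, picked by symbol alone, that is Hoxa, Hoxb, Hoxc or Hoxd, Tbx, Gata or Pax followed by a number. The mouse annotation holds 67 such genes (39 Hox, 13 Tbx, 6 Gata and 9 Pax), and 30 of them had a row among the 32371 rows of the count table. Of these 30, 12 had enough counts to be tested, 1 (Pax6) was higher and 3 (Gata3, Tbx20 and Tbx21) were lower in the Ezh2-Y726D libraries than in the GFP libraries, and none of the 12 was higher by more than 1.5-fold. For all genes tested, 13.9% were higher and 13.6% were lower at the same threshold. The 3 lower calls depended on the setting. Of the 30 genes, 0 passed as lower with DESeq2, full library totals or thinned counts. The same held without GFP replicate 2 and without Ezh2-Y726D replicate 2. Over all genes, DESeq2 called 9.52% lower, full library totals 19 of 18138 and thinned counts 1648 of 15003. Without these libraries in turn, 2244 of 18960 and 2098 of 18816 genes were lower. Without the filter on low counts, 4 of the 30 genes and 7.16% of all genes were lower.

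The libraries were RNA-Seq of retinal cells of adult C57BL/6J mice of both sexes. The 3 control libraries came from mice injected intravitreally with AAV2-GFP, and the other 3 from mice injected with AAV2-Ezh2-Y726D, the methyltransferase without its catalytic activity, in which a tyrosine is changed to an aspartic acid. All mice received an optic nerve crush (ONC) 2 weeks after the injection and were collected 3 days after the ONC, and cells positive for CD90.2 (the product of Thy1) were sorted to enrich retinal ganglion cells (RGCs). The endogenous Ezh2 gene is intact in both groups, AAV2 can also transduce other retinal cells, and the sources used here do not say whether a library pooled several mice or what separated the replicates, so P values measure the spread between these libraries.

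Ezh2 is the catalytic subunit of Polycomb repressive complex 2 (PRC2), which methylates histone H3 at lysine 27. Nucleosomes with the trimethylated mark, H3K27me3, are bound by Polycomb repressive complex 1 (PRC1), and the genes beneath stay silent. The developmental transcription factors of the Hox, Tbx, Gata and Pax families are the textbook targets of this system: each is used in a few embryonic lineages and kept under H3K27me3 in most others, and loss of PRC2 in many cell types lets some of them be transcribed. The retina is an unusual place to look at them, because Pax6 and the dorsal eye genes Tbx2, Tbx3 and Tbx5 are part of its own program, whereas Hox genes are used behind the eye field, in the hindbrain, spinal cord and trunk. The comparison asked how many of these genes were detected, and whether their transcripts were more abundant, in cells that received the inactive enzyme.

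A feature that recruits PRC2 in mammals is DNA rich in unmethylated CG dinucleotides, so the promoters are shown first. RefSeq windows from 250 bases before to 50 bases after the start (GRCm38.p6) were found for 42 of the 67 genes, with 51 windows in all. The windows held a median of 15 CG, compared with 7 over all 32851 windows, and 41.2% of them held at least 20 CG, compared with 26.5% of all windows. CG reads as CG on the opposite strand too, so the counts do not depend on the strand. The 24 Hox windows had a median of 14.5 CG. The 25 windows of genes without a row in the count table had a median of 13, compared with 16 for the 26 windows of genes with a row. The 8 windows of tested genes had a median of 17. The 250 bases before the start are given 5′ to 3′ on the strand of the gene, with each CG in capitals, for a Hox gene without a row (Hoxa13, chr6:52260881-52261130, minus strand, 35 CG), a Hox gene with counts in every library (Hoxb4, chr11:96318017-96318266, plus strand, 14 CG), the gene that was higher (Pax6, first start, chr2:105668646-105668895, plus strand, 15 CG), a pair of the tested genes that were lower (Tbx20, chr9:24774304-24774553, minus strand, 22 CG; Gata3, chr2:9878601-9878850, minus strand, 19 CG), and a gene of the same families with few CG (Gata1, chrX:7967911-7968160, minus strand, 2 CG).
Hoxa13: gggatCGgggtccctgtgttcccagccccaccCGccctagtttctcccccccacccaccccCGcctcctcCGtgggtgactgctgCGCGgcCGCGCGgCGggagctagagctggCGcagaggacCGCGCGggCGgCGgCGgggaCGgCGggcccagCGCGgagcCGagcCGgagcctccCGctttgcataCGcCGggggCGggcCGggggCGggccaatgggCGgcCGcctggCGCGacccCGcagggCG
Hoxb4: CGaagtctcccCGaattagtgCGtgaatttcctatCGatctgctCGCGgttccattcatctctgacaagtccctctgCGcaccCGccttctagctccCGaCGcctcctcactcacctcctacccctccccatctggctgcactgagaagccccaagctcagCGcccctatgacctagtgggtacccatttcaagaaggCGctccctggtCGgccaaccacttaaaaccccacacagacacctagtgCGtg
Pax6: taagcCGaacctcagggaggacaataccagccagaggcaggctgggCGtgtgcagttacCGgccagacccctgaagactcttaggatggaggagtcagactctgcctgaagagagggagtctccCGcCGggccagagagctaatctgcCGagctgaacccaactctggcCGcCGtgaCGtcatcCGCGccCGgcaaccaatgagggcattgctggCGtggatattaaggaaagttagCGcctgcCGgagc
Tbx20: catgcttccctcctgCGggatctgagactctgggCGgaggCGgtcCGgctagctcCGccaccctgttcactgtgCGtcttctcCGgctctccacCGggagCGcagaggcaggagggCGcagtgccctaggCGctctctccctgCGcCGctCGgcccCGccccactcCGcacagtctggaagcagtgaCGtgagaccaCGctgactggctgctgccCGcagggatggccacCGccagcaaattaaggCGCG
Gata3: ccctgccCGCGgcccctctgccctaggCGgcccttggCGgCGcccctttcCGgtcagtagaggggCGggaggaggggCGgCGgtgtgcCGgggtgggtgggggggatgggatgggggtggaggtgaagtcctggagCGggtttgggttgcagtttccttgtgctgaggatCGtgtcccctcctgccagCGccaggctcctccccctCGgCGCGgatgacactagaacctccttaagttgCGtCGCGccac
Gata1: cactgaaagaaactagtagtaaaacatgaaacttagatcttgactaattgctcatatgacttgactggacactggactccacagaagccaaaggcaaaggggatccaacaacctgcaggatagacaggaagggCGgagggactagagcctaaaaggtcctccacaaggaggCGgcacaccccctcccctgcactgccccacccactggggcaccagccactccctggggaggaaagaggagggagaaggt
Of the stretches shown, that of Hoxa13, which had no row, held the most CG. Its 300-base window, with 45 CG, was also the highest of all 51, so it is an extreme and not typical of genes without a row. The 300-base windows of the abundant Pax6 held 18 and 16, close to the median of 15. No accessibility or H3K27me3 data were analysed here, so the windows say nothing of the mark at these promoters in the sorted cells.

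The libraries held between 9333244 and 23782520 counts. A single rRNA gene, CT010467.1, held 50.9% and 52.2% of all reads counted for GFP replicates 2 and 3, compared with 2.55% to 16.1% in the other 4 libraries, so that the counts left for other genes were 20896150, 5745352 and 4460732 in GFP replicates 1 to 3 and 15280377 to 22024582 in the Ezh2-Y726D libraries. Values per library are given as counts or as CPM, that is counts scaled to 1000000 counts of the library after TMM scaling, and 3 counts correspond to a CPM between 0.102 and 0.498 depending on the library. Genes with enough counts were tested with the quasi-likelihood test of edgeR, with Benjamini-Hochberg adjustment over the 18138 genes tested, and a gene is called higher or lower at an adjusted P under 0.05 and a DEG if the fold change also exceeds 1.5. Ezh2 itself, counted over the native gene and the vector together as far as reads match, had 22.7, 23.9 and 26.4 CPM in GFP replicates 1 to 3, compared with 65.2, 65.6 and 65.2 CPM after Ezh2-Y726D, a log2 fold change of 1.46 (SE 0.061, adjusted P = 3.01e-16). The 8 RGC markers were all present, with a summed level of 430 to 443 CPM in GFP and 413 to 444 CPM in Ezh2-Y726D libraries. Markers of rods (5279 to 5988 CPM), Müller glia (7904 to 9354 CPM) and amacrine cells (712 to 1225 CPM) had higher summed levels than the RGC markers in every library, so the sorted cells were a mixture. In such bulk libraries, fewer cells of a type and less RNA per cell cannot be told apart.

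Most Hox genes had no row. Of the 39 Hox genes, 9 (23.1%) had one: Hoxa5, Hoxa7, Hoxa9, Hoxb3, Hoxb4, Hoxb6, Hoxb9, Hoxc5 and Hoxd4. For comparison, 11 of 13 Tbx, 4 of 6 Gata and 6 of 9 Pax genes had a row, and so did 80.2% of the 22028 protein-coding genes in the annotation. Every row in the table has at least 1 count in at least 1 library. No value is given here for the 30 Hox genes and 7 others (Gata4, Gata5, Pax1, Pax3, Pax4, Tbx19 and Tbx22) without a row, and a row can be missing for reasons other than a lack of reads.

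Across the 30 genes with a row, at least 1 count was found for 25, 18 and 19 genes in GFP replicates 1 to 3, and for 21, 21 and 22 genes in Ezh2-Y726D replicates 1 to 3. The deepest GFP library thus had counts for more of these genes than any Ezh2-Y726D library, and the 2 shallow GFP libraries for fewer. When each library was thinned to 4460732 counts, the depth of the shallowest without CT010467.1, the numbers became 19, 17 and 19 in GFP and 17, 19 and 17 in Ezh2-Y726D libraries, so the ranges of the groups were the same. More than 3 counts were found for 18, 13 and 9 genes in GFP and for 17, 16 and 16 genes in Ezh2-Y726D libraries. Of the 9 Hox genes, 7, 3 and 4 had a count in GFP and 4, 4 and 5 in Ezh2-Y726D libraries, so the groups overlapped. After thinning, which left 4 to 14 Hox counts per library, the numbers were 4, 3 and 4 compared with 2 in each Ezh2-Y726D library.

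**Figure D1:**
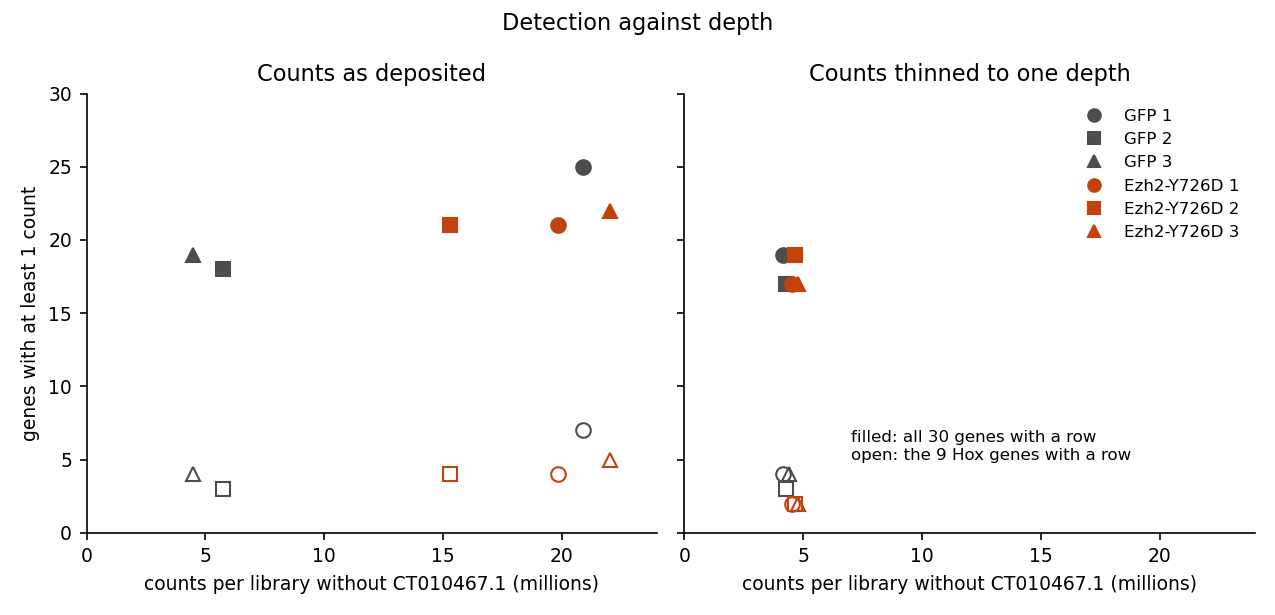
Number of Hox, Tbx, Gata and Pax genes with at least 1 count (y axis) against the counts of the library without CT010467.1 (x axis, in units of 1000000 counts), as deposited (left) and thinned to the depth of the shallowest library (right, points moved sideways where they would cover each other). Filled symbols are all 30 genes with a row, open symbols the 9 Hox genes. At matched depth the GFP libraries hold 17 to 19 of the genes and the Ezh2-Y726D libraries also 17 to 19.

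The Hox genes with a row were near the limit of what the libraries could count. Over the 9 genes, the counts summed to 58, 7 and 14 in GFP and to 27, 20 and 28 in Ezh2-Y726D libraries, which is 2.03, 0.903 and 2.32 CPM compared with 1.01, 0.980 and 0.949 CPM. GFP replicate 2 was below all 3 Ezh2-Y726D libraries and the other 2 GFP libraries were above them, so the groups overlapped. The mean was 1.75 ± 0.750 CPM (SD, n = 3) in GFP and 0.981 ± 0.0329 CPM in Ezh2-Y726D libraries. The pooled counts (79 compared with 75) gave a ratio of 0.525 with an exact 95% interval of 0.377 to 0.729, which covers counting error only. No summed rise of the Hox genes was seen: the ratio of the group means was 0.560 with TMM, 0.553 with library totals without CT010467.1, and 0.768 with full library totals. Without Hoxb9, the only Hox gene that was tested, the TMM ratio of the remaining 8 was 0.392. The 3061 protein-coding genes outside these families that were too low to be tested had a ratio of 0.905.

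The Hoxb cluster (chr11, 96194316 to 96368256) held most of these counts, 73 of 79 in GFP and 64 of 75 in Ezh2-Y726D libraries. Hoxb9, a posterior gene of the cluster (chr11, 96271457 to 96276595), was the only Hox gene to pass the filter on low counts. It had 26, 2 and 3 counts in GFP and 13, 11 and 15 counts in Ezh2-Y726D libraries, that is 0.912, 0.258 and 0.498 CPM compared with 0.489, 0.539 and 0.508 CPM. The GFP libraries lay on both sides of the Ezh2-Y726D libraries, and the difference did not pass the test (log2 fold change -0.47, SE 0.38, adjusted P = 0.415). Its 95% interval reached from 0.417-fold to 1.24-fold, and without GFP replicate 1 the fold change turned positive (0.48, adjusted P = 0.695).

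Hoxb4 and Hoxb3, which specify hindbrain and neck levels, were next. Hoxb4 (chr11, 96318267 to 96321638) had 14, 4 and 7 counts in GFP and 10, 5 and 3 counts in Ezh2-Y726D libraries. In CPM, the 3 GFP libraries were all above the 3 Ezh2-Y726D libraries. Hoxb3 (chr11, 96323326 to 96347930) had 12, 1 and 3 counts in GFP and 0, 1 and 6 counts in Ezh2-Y726D libraries, and the groups overlapped. Neither gene passed the filter. In a fit without the filter, in which 8.11% of 32371 genes were higher and 7.16% lower, Hoxb3 was called lower (log2 fold change -1.95, adjusted P = 0.046) and Hoxb4 was not (-1.35, adjusted P = 0.056). Of the exonic bases of Hoxb3, 52.9% also lie in exons of Hoxb3os on the other strand, which had 4, 0 and 1 counts in GFP and 0, 5 and 0 in Ezh2-Y726D libraries. Whether strand was used in counting is not given in the sources used here, so reads of the overlapping genes cannot be told apart.

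Hoxa7 (chr6, 52214491 to 52221854), a trunk gene of the Hoxa cluster, was the only one of the 30 genes with no count in any GFP library and a count in every Ezh2-Y726D library. It had 3 counts in each of the 3 Ezh2-Y726D libraries. In the whole table, 272 rows were at 0 in every GFP library with a count in every Ezh2-Y726D library, and 17 of these had at least 3 counts in each. The reverse pattern was found in 19 rows and in none of these genes, and the counts available to other genes were lower in GFP replicates 2 and 3 than in any Ezh2-Y726D library, but higher in GFP replicate 1 than in Ezh2-Y726D replicates 1 and 2. Both groups were at or under 3 counts per library, so no fold change is given. In the fit without a filter the difference in Hoxa7 had an unadjusted P of 0.0193 and was not called (adjusted P = 0.107), and 20.4% of its exonic bases overlap the antisense gene Hoxaas3 (2, 0 and 0 counts in GFP, 0, 0 and 1 in Ezh2-Y726D libraries). The neighbours Hoxa5 (1, 0 and 0 compared with 1, 0 and 1 counts) and Hoxa9 (1, 0 and 0 compared with none) did not show this pattern, and the noncoding RNA Hotairm1 at the anterior end of the cluster had 2 counts in Ezh2-Y726D replicate 1 and none elsewhere. Summed over the 3 Hoxa genes, 2 counts in GFP compared with 11 in Ezh2-Y726D libraries were found, and 9 of the 11 were those of Hoxa7. The remaining Hox genes were Hoxb6 (1 count in GFP replicate 1), Hoxc5 (1 count in GFP replicate 3) and Hoxd4 (3 counts in GFP replicate 1, with 52.3% of its exonic bases shared with neighbouring genes).

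**Figure D2:**
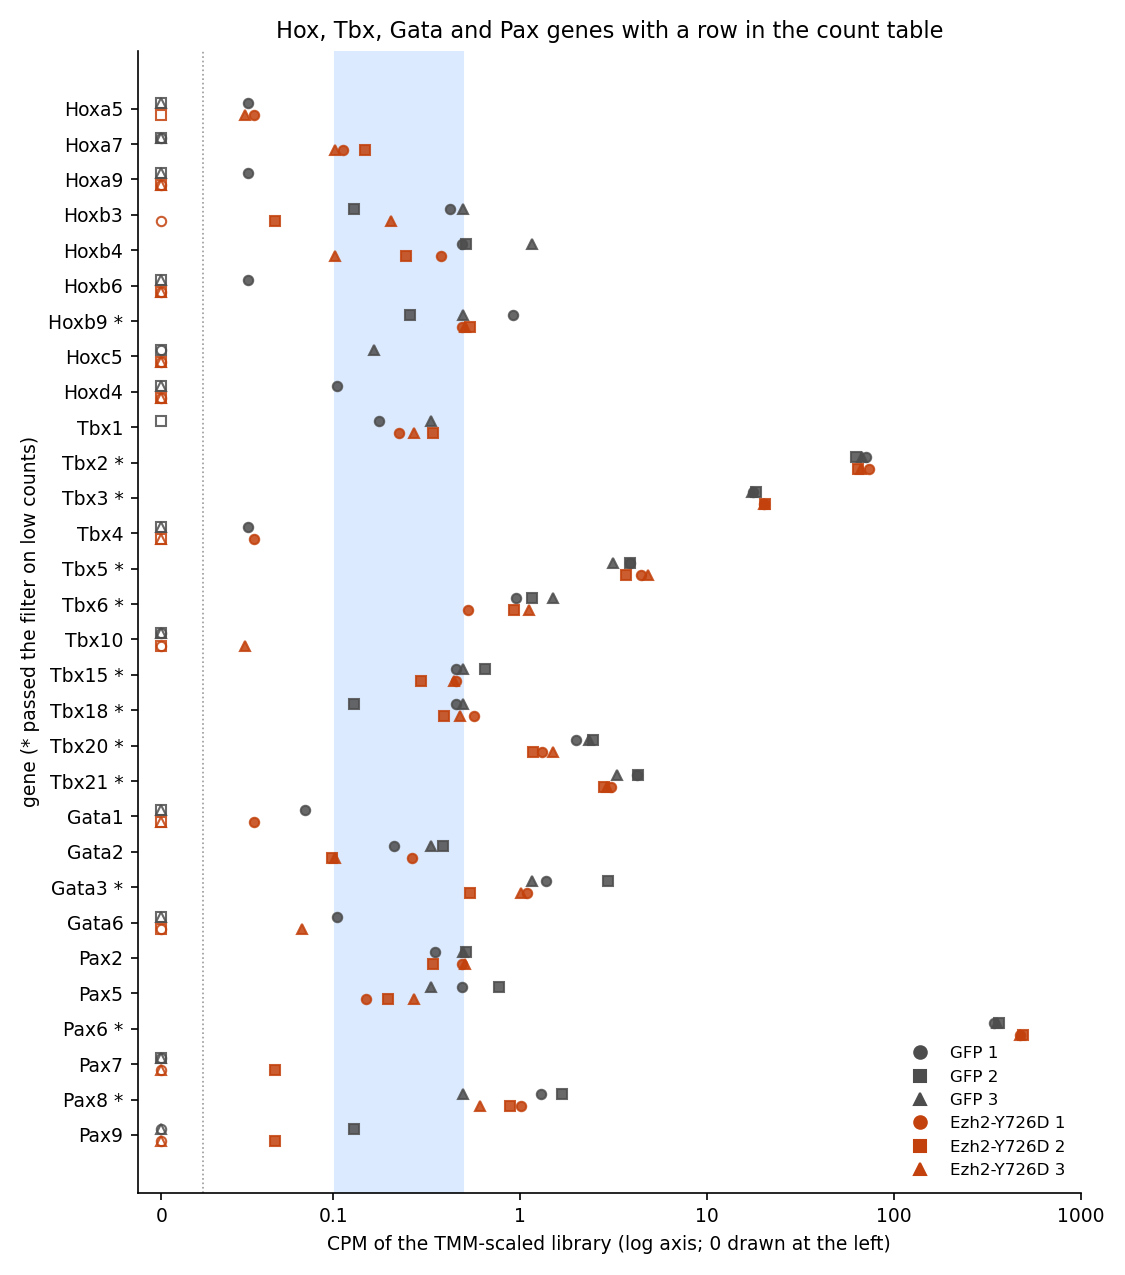
CPM of the TMM-scaled library (x axis, log scale, 0 drawn at the left) of each of the 30 genes with a row (y axis), with 1 symbol per library and grey for GFP, orange for Ezh2-Y726D. An asterisk marks the 12 genes that passed the filter on low counts, and the shaded band is the CPM that 3 counts give in the 6 libraries (0.102 to 0.498). Pax6, Tbx2 and Tbx3 stand to the right of all others, and most Hox genes lie in or to the left of the band.

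The Tbx genes were the family with most tested genes, 8 of the 11 with a row. Their summed level was 97.0 ± 3.36 CPM in GFP and 99.0 ± 5.48 CPM in Ezh2-Y726D libraries, a ratio of 1.02 with TMM. The ratio was 1.01 with library totals without CT010467.1 and 1.44 with full library totals, a scaling that raised the median gene by 0.49 on the log2 scale. Nearly all of this sum came from the genes that pattern the dorsal retina. Tbx2 (chr11, 85832551 to 85841948) was at 70.5, 62.8 and 67.8 CPM in GFP and at 73.9, 63.9 and 66.5 CPM in Ezh2-Y726D libraries. The groups overlapped, and the interval of the difference was narrow, from 0.929-fold to 1.09-fold (log2 fold change 0.0094, SE 0.057, adjusted P = 0.936).

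Tbx3 (chr5, 119670669 to 119684724) was at 17.7, 18.3 and 17.4 CPM in GFP and at 20.3, 20.4 and 20.2 CPM in Ezh2-Y726D libraries. All Ezh2-Y726D libraries were above all GFP libraries, but the difference of 0.19 on the log2 scale (SE 0.073) missed the threshold (adjusted P = 0.0518), with an interval from 1.03-fold to 1.27-fold. It passed only when at least 10 counts were required in every library (adjusted P = 0.0418). Among all genes tested, 19.7% were higher without overlap, compared with 2 of the 12 genes here (Pax6 and Tbx3), and 18.9% were lower without overlap, compared with 4 of the 12 (Gata3, Tbx15, Tbx20 and Tbx21). Tbx5 (chr5, 119832668 to 119885219) lies next to Tbx3 and was at 3.86, 3.87 and 3.15 CPM in GFP and at 4.43, 3.68 and 4.85 CPM in Ezh2-Y726D libraries, with overlapping groups (log2 fold change 0.22, SE 0.16, adjusted P = 0.341). Per kilobase of exons, the mean levels in GFP libraries fell from 18.5 CPM for Tbx2 to 2.69 CPM for Tbx3 and 0.776 CPM for Tbx5.

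Tbx20 (chr9, 24718138 to 24774303), best known as a regulator of heart development, was lower in the Ezh2-Y726D libraries. It had 57, 19 and 14 counts in GFP and 35, 24 and 44 counts in Ezh2-Y726D libraries, that is 2.00, 2.45 and 2.32 CPM compared with 1.32, 1.18 and 1.49 CPM. The groups did not overlap, and the means were 2.26 ± 0.232 and 1.33 ± 0.158 CPM. The log2 fold change was -0.68 (SE 0.23, adjusted P = 0.0285, interval 0.447-fold to 0.868-fold). This call held in 1 of 6 fits that left out a library, with log2 fold changes from -0.83 to -0.62 and adjusted P between 0.0367 and 0.0890. It was lost with DESeq2 (log2 fold change -0.72, adjusted P = 0.148), with thinned counts (-0.62, adjusted P = 0.236) and with full library totals (-0.25, adjusted P = 0.653). Markers of several other cell types were lower in the same libraries, namely 5 of 5 for macrophages (534 to 593 CPM in GFP, 133 to 161 CPM in Ezh2-Y726D libraries), 5 of 5 for bipolar cells (807 to 821 compared with 596 to 615 CPM), 5 of 5 for cones (344 to 360 compared with 228 to 238 CPM) and 3 of 3 tested for fibroblasts (22.3 to 33.7 compared with 14.8 to 17.2 CPM). In these lists every tested marker was lower, and other lists differed. Of the 8 RGC markers 2 were higher and 1 was lower, and all 7 amacrine markers were higher. The part of any of these cell types in the fall of Tbx20 was not tested.

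Tbx21 (chr11, 97098071 to 97115331) encodes T-bet, the lineage factor of type 1 T helper cells that is also used in NK cells. It was at 4.24, 4.26 and 3.32 CPM in GFP and at 3.08, 2.79 and 2.91 CPM in Ezh2-Y726D libraries, without overlap. The log2 fold change was -0.47 (SE 0.16, adjusted P = 0.0320, interval 0.570-fold to 0.911-fold), and it was 0.015 when full library totals were used for scaling. The call held in 2 of 6 fits that left out a library (log2 fold change from -0.53 to -0.39, adjusted P from 0.0209 to 0.286). DESeq2 gave -0.45 and an adjusted P of 0.240. All 7 T cell markers (Cd3d, Cd3e, Cd3g, Lck, Cd2, Cd8a and Cd4) were lower as well, with a summed level of 113 to 116 CPM in GFP and 63.5 to 69.4 CPM in Ezh2-Y726D libraries, and none of them was at 0. Of the 3 NK cell markers, 2 were lower (summed level 13.1 to 17.7 compared with 7.80 to 9.21 CPM). Their part in the result was not tested.

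The other tested Tbx genes were low and did not pass the test. Tbx6, a paraxial mesoderm gene, was at 0.947, 1.16 and 1.49 CPM in GFP and at 0.526, 0.931 and 1.12 CPM in Ezh2-Y726D libraries (log2 fold change -0.33, adjusted P = 0.524). Tbx15, a mesenchymal gene, had 3 to 13 counts per library and a log2 fold change of -0.30 (adjusted P = 0.665), and its GFP libraries (0.456, 0.645 and 0.498 CPM) were all above its Ezh2-Y726D libraries (0.451, 0.294 and 0.441 CPM) by a margin of less than 1 count. Tbx18, a gene of pericytes and other mural cells, had 1 to 15 counts per library (log2 fold change 0.27, adjusted P = 0.713), while the 7 pericyte and smooth muscle markers summed to 221 to 241 CPM in GFP and 172 to 186 CPM in Ezh2-Y726D libraries, with 5 of them lower. The directions of Tbx6 and Tbx15 turned positive with full library totals. Of the untested genes, Tbx1 had 5, 0 and 2 counts in GFP and 6, 7 and 8 counts in Ezh2-Y726D libraries, and Tbx4 and Tbx10 had at most 1 count in any library.

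The Gata family had 1 tested gene. Gata3 (chr2, 9857078 to 9890034), which directs T cell development and type 2 T helper cells and is also used in the inner ear and some neurons, had 39, 23 and 7 counts in GFP and 29, 11 and 30 counts in Ezh2-Y726D libraries. That is 1.37, 2.97 and 1.16 CPM in GFP compared with 1.09, 0.539 and 1.02 CPM, with no overlap but with GFP replicate 2 well above the others. The means were 1.83 ± 0.988 and 0.882 ± 0.299 CPM, and the log2 fold change was -0.89 (SE 0.32, adjusted P = 0.0382, interval 0.343-fold to 0.851-fold). The call was lost without GFP replicate 2 (-0.54, adjusted P = 0.278) and without Ezh2-Y726D replicate 2 (-0.68, adjusted P = 0.154), and it held in the other 4 such fits. It was also lost with DESeq2 (log2 fold change -0.999, adjusted P = 0.106) and with full library totals (-0.46, adjusted P = 0.454). As for Tbx21, the T cell markers moved the same way, and their part in the result was not tested.

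Gata2, a blood stem cell and mast cell gene, had 6, 3 and 2 counts in GFP and 7, 2 and 3 counts in Ezh2-Y726D libraries and was not tested. Gata1, which drives red blood cell and megakaryocyte genes, had 2, 0 and 0 compared with 1, 0 and 0 counts, and Gata6 had 3, 0 and 0 compared with 0, 0 and 2 counts. Over the 4 Gata genes the sum was 2.20 ± 1.01 CPM in GFP and 1.07 ± 0.390 CPM in Ezh2-Y726D libraries. The ratio of the means was 0.487, and 0.738 with full library totals.

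**Figure D3:**
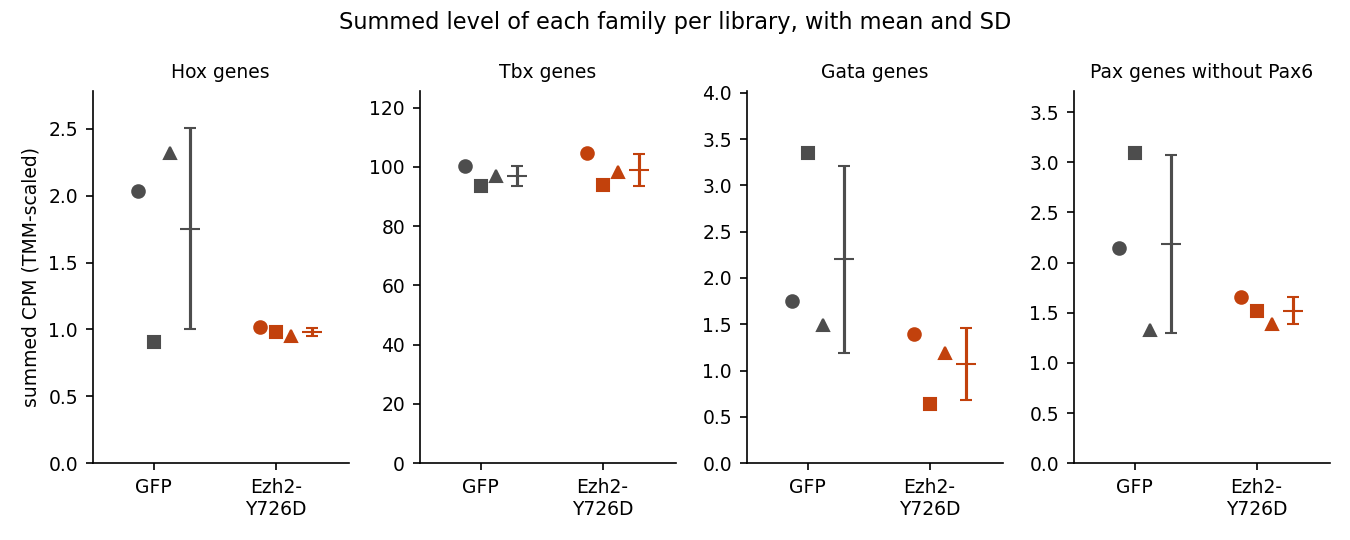
Summed CPM of the TMM-scaled library (y axis, from 0) of the 9 Hox, 11 Tbx and 4 Gata genes and the 5 Pax genes other than Pax6, with 1 point per library (circle, square and triangle for replicates 1, 2 and 3) and the mean with SD of the 3 libraries beside them. The Hox sums of the Ezh2-Y726D libraries (0.949 to 1.01) lie within the range of the GFP libraries (0.903 to 2.32), and the Tbx sums of the groups overlap.

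Pax6 (chr2, 105668900 to 105697364) was by far the most abundant of all these genes, with 77.5% of their summed CPM in GFP and 82.3% in Ezh2-Y726D libraries. It is the homeobox gene that founds the eye and is kept on in adult amacrine cells, RGCs and horizontal cells, so it is an expressed gene of this tissue and not a silent one. It had 9815, 2838 and 2146 counts in GFP and 12613, 9957 and 13882 counts in Ezh2-Y726D libraries, that is 344, 366 and 356 CPM compared with 474, 488 and 470 CPM. Every Ezh2-Y726D library was above every GFP library, by more than the spread within either group (355 ± 10.9 and 478 ± 9.24 CPM). The log2 fold change was 0.43 (SE 0.040, adjusted P = 1.48e-09), with an interval from 1.27-fold to 1.42-fold, below the 1.5-fold threshold for a DEG. The call held without each library in turn (0.40 to 0.45) and in 14 of 15 alternatives. The exception was full library totals, with which the log2 fold change was 0.94 and the adjusted P 0.325. At that setting only 46 of all 18138 genes were called higher.

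All 7 amacrine markers were higher too, among them Gad1, Gad2 and Slc32a1, which make or package GABA, and the glycine transporter gene Slc6a9. Their summed level was 712 to 807 CPM in GFP and 1183 to 1225 CPM in Ezh2-Y726D libraries, their median log2 fold change was 0.61, and none was at 0. The horizontal cell markers (15.1 to 17.7 CPM in GFP, 16.3 to 17.2 CPM in Ezh2-Y726D) had none of 3 tested genes called. Of the 8 RGC markers, Pou4f1 (log2 fold change 0.41) and Thy1 (0.13) were higher and Isl1 (-0.58) was lower. The part of these cell types in the rise of Pax6 was not tested.

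The other Pax genes were low. Pax8, a thyroid and kidney gene, was at 1.30, 1.68 and 0.498 CPM in GFP and at 1.01, 0.882 and 0.610 CPM in Ezh2-Y726D libraries, and the groups overlapped (log2 fold change -0.58, SE 0.32, adjusted P = 0.198). Pax2, a gene of the optic stalk and its astrocytes, had 10, 4 and 3 counts in GFP and 13, 7 and 15 counts in Ezh2-Y726D libraries, and its mean level was 0.455 ± 0.0905 compared with 0.447 ± 0.0903 CPM. Pax5, the B cell identity gene, had 14, 6 and 2 counts in GFP and 4, 4 and 8 counts in Ezh2-Y726D libraries. Its CPM did not overlap (0.332 to 0.774 in GFP, 0.150 to 0.271 in Ezh2-Y726D libraries), and in the fit without a filter its difference did not pass (adjusted P = 0.10). Of the 4 B cell markers, 2 were lower, and their sum was 3.98 to 5.16 CPM in GFP and 2.07 to 3.38 CPM in Ezh2-Y726D libraries. Pax7 and Pax9 had at most 1 count in any library.

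**Figure D4:**
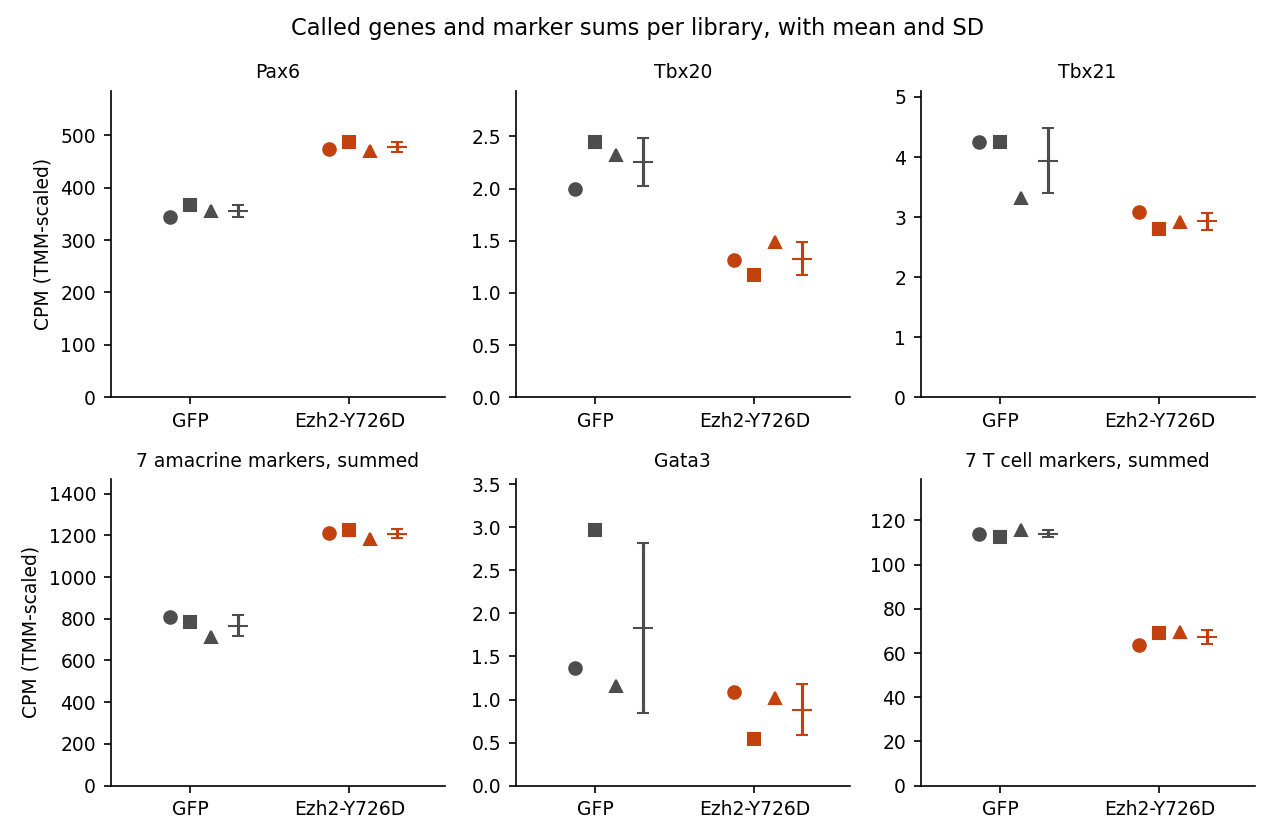
CPM of the TMM-scaled library (y axis, from 0) of the 4 genes that passed the test and the summed CPM of 7 amacrine and 7 T cell markers, with 1 point per library (circle, square and triangle for replicates 1, 2 and 3) and the mean with SD of 3 libraries beside them. Pax6 and the amacrine markers are higher, and Tbx20, Tbx21, Gata3 and the T cell markers are lower, in all 3 Ezh2-Y726D libraries; with full library totals Tbx21 has a log2 fold change of 0.015.

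Across the 12 tested genes, 1 of 12 was higher and 3 of 12 were lower, compared with the 13.9% and 13.6% of all genes given above. As DEGs, 0 of 12 were higher and 2 of 12 were lower (Gata3 and Tbx20), compared with 2.52% and 5.5% of all genes. At an unadjusted P under 0.05, edgeR gave 2 higher and 3 lower of the 12 genes, where 18.4% and 17.8% of all genes tested were higher and lower. DESeq2, run on all 30 genes with a row, gave 1 higher and 3 lower, where 7.81% and 7.38% of all 32371 genes were. In neither of these fits was any of the genes higher by more than 1.5-fold at an unadjusted P under 0.05, compared with 3.23% of all genes in edgeR and 1.24% in DESeq2, whereas the fitted value of Hoxa7, at 0 counts in GFP, was past it in edgeR without the filter. DESeq2 gave an adjusted P for 9 of the genes and called 1 higher and 0 lower, where 10.4% and 9.52% of all genes were called. The median log2 fold change was -0.32 with 5 genes above 0 and 7 below, compared with 0.00 over all genes tested. This median was -0.044 without GFP replicate 1. It was above 0 with at least 10 counts in every library (0.10) and with thinned counts (0.064), each over only 6 of the genes. With full library totals it was 0.066, where the median over all genes was 0.49. Over all 30 genes with a row it was -0.52 without the filter and -0.49 with DESeq2, compared with 0.029 and -0.039 over all genes. For the 18 genes with a row that were too low for the test, the pooled counts were 112 in GFP and 127 in Ezh2-Y726D libraries, a ratio of 0.627 with an exact 95% interval for counting error of 0.482 to 0.815. The 12 of them that never exceeded 3 counts had 14 and 18 counts in all, a pooled ratio of 0.711 with an interval of 0.334 to 1.54. For these 12 the ratio of the group means was 0.989 with TMM and 1.18 with full library totals. The filter that set the 18 genes apart used totals with CT010467.1, so genes carried by GFP replicates 2 and 3 failed it more easily. The ratio of 0.627 is therefore not free of that selection. The other 3061 untested protein-coding genes had a pooled ratio of 0.903 (0.886 to 0.921).

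**Figure D5:**
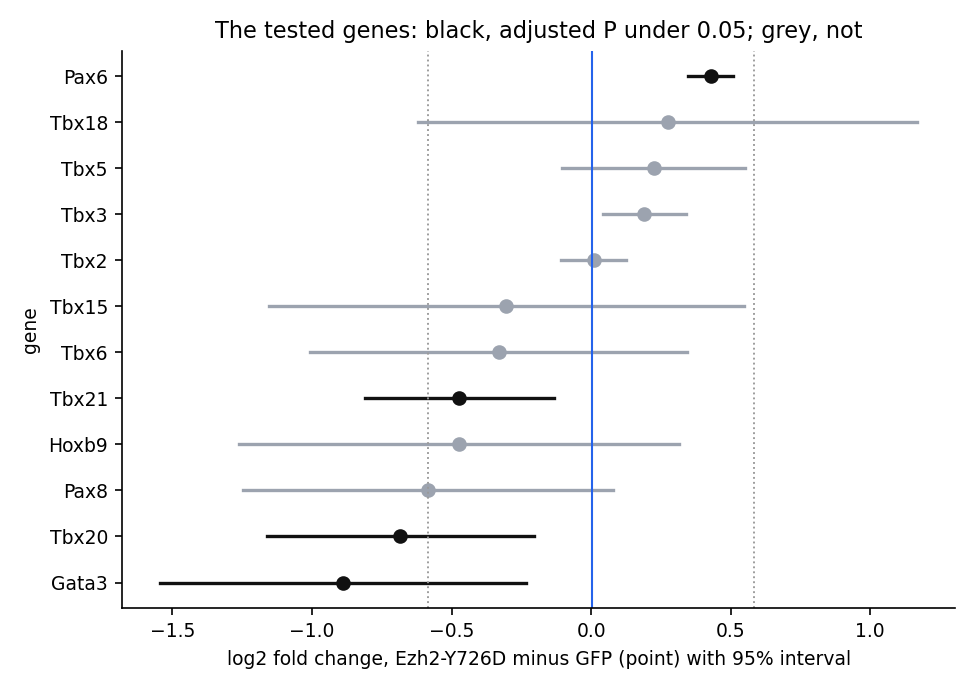
Log2 fold change of Ezh2-Y726D minus GFP (x axis, points) with its 95% interval (lines) from edgeR for the 12 tested genes (y axis), in black where the adjusted P was under 0.05 and in grey otherwise. Dotted lines mark a 1.5-fold change in either direction. The whole interval of Pax6 lies between no change and 1.5-fold higher (1.27 to 1.42); the points of Tbx6, Tbx15 and Tbx21 lie left of 0 with TMM and right of 0 with full library totals, and that of Tbx2 changes side with small changes of the setting.

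The genes that write, read or erase the mark were read against the 13.9% of all genes that were higher and the 13.6% that were lower. Of 13 genes of PRC2 and its accessory proteins, Ezh2 was higher and Eed, the subunit that binds H3K27me3, was lower (23.9 ± 1.58 compared with 20.4 ± 1.43 CPM, log2 fold change -0.23, adjusted P = 0.0198). Of 19 PRC1 genes, Pcgf2 (0.44, adjusted P = 0.00259) and Yaf2 (0.19, adjusted P = 0.0236) were higher and 0 were lower. Neither of the H3K27 demethylase genes Kdm6a and Kdm6b passed the test. A further list of 58 developmental regulators known as Polycomb targets had 36 genes with a row and 15 tested, of which 2 were higher and 1 was lower, beside the same 13.9% and 13.6% of all genes. Barhl2, a homeobox gene used in amacrine cells and RGCs, rose from 8.11 ± 0.593 to 12.5 ± 0.801 CPM (log2 fold change 0.66, adjusted P = 9.23e-06). Lhx9 rose from 13.02 ± 0.986 to 17.4 ± 0.856 CPM (0.38, adjusted P = 0.000934). En2, a midbrain and cerebellar gene, fell from 1.43 ± 0.951 to 0.448 ± 0.0944 CPM (log2 fold change -1.47, adjusted P = 0.00301). The median of the 15 was -0.02. Both genes that rose had counts in all GFP libraries, which passing the filter on low counts already favours. Of the untested genes, Six2 (3, 0 and 0 compared with 4, 5 and 6 counts) and Dlx3 (4, 0 and 1 compared with 7, 6 and 7) were higher in CPM without overlap. Lhx5 (1, 1 and 0) and Wt1 (1, 0 and 1) had counts in GFP libraries only. Such low counts depend on depth, which was low in GFP replicates 2 and 3.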

How the data were processed

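The authors deposited raw counts per gene, whole numbers with no normalization, from 3 GFP and 3 Ezh2-Y726D libraries, and all columns were assigned by name to the sample labels. The submitters' processing notes name STAR 2.7.0d and GRCm38; the counting tool, its strand setting and the annotation are not given in the sources used here, and RNA-Seq of wild-type Ezh2, ATAC-Seq and CUT&Tag were not used here. Symbols were matched for 32325 of 32371 rows, and coordinates, lengths and exonic overlap come from GENCODE vM21 (GRCm38).

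The deposited counts were tested with edgeR 4.0.16 (R 4.3.3), with TMM factors and a fit on all 6 libraries without a replicate block. The filter was filterByExpr (at least 10 counts scaled to library size and a total of 15), with CT010467.1 included in the library size. SE were derived from each gene's log2 fold change and F statistic. A gene at or under 3 counts in every library of both groups was given no fold change. With 3 libraries per group an exact permutation test cannot go below 0.1, so none was used for single values. Counts of libraries of the same group differed by more than sampling noise (chi-square per degree of freedom 1.49 to 3.03), so no library was counted as a repeat deposit of another; this does not show that they came from separate animals. In simulated counts for 18138 genes with 200 changed by a log2 fold change of 1, edgeR called 168 of the changed and 6 unchanged genes. Of the 105 changed genes below the median level, 73 were called. The 12 tested genes had smaller log2 fold changes (-0.89 to 0.43) and most were low, so these rates do not give the power for them.

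The genes, lists and tests were chosen with earlier results of these data known. Values in every library are given for genes that passed the threshold and the 2 most abundant genes of each family; other tested genes are named with their values, and untested genes by name where a library held more than 3 counts. Hoxa5, Hoxa7, Hoxa9, Hoxb6, Hoxc5, Hoxd4, Gata1, Gata6, Tbx4, Tbx10, Pax7 and Pax9 were named after their counts were seen. The alternatives were RLE size factors, library totals with and without CT010467.1, DESeq2 1.42.0, no filter on low counts or a minimum of 10 in each library, a replicate block, thinned counts and leaving out each library. Leaving out GFP replicates 2 and 3 together was added after seeing the data. Figures were drawn with matplotlib 3.10.9. Promoter sequences were taken from RefSeq (GRCm38.p6), and genes without an entry were not looked for elsewhere.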

Additional observations from a re-analysis of the deposited data

How the results depend on the processing

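The count of 1 higher gene (Pax6) became 0 with full library totals and 2 with at least 10 counts in every library (Pax6 and Tbx3). It stayed at 1 in all 6 fits without a library, and no setting gave a DEG that was higher. With full library totals only 46 of all 18138 genes were higher and 19 lower, compared with 2525 and 2463 in the main fit. With at least 10 counts in every library, 2486 of 14707 genes were higher. The count of 3 lower genes became 0 with full library totals, with DESeq2 and with thinned counts, and 0 to 3 in the fits without a library. It rose to 4 with totals that leave out CT010467.1 and to 4 without a filter. The 2 lower DEGs became 0 with full library totals, DESeq2 and thinned counts, 1 with at least 10 counts in every library, and 0 to 2 in the fits without a library. They rose to 3 with totals that leave out CT010467.1 and to 3 without a filter. Without GFP replicate 1, 1 gene was lower and 1 was a lower DEG; without GFP replicate 2 and without Ezh2-Y726D replicate 2 there were 0 of each. The number of genes passing the filter was 6 with at least 10 counts in every library and with thinned counts, where fewer low genes can be tested. It was 14 with totals that leave out CT010467.1 and 12 to 15 in the fits without a library. In GFP replicate 3, 9 genes had more than 3 counts compared with 19 with any count. Full library totals moved the median of all genes to 0.49 on the log2 scale (-0.02 when CT010467.1 was left out of the totals), and with them the log2 fold changes of Tbx21 (0.015), Tbx6 (0.060) and Tbx15 (0.072) turned positive. Tbx2 was at -0.010 with totals that leave out CT010467.1, at -0.047 without GFP replicates 2 and 3 and between -0.054 and 0.066 in the fits without a library, and Hoxb9 was at -0.68 to 0.48 in those fits, positive without GFP replicate 1. The cause of these changes was not tested. The lower genes were not always the same. Hoxb4 was called in addition to the 3 with totals that leave out CT010467.1, and Hoxb3 in addition to them without a filter. Hoxb4 was also called without Ezh2-Y726D replicate 1, where Tbx20 was not. Pax5 (-1.40, adjusted P = 0.0484 in edgeR) was called without GFP replicate 3, where Tbx20 again was not. Ezh2 was higher in all 15 alternatives.

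The labels do not say that a replicate number marks a shared animal, litter or day, and deviations of same-numbered libraries correlated at 0.072, 0.034 and 0.024, although each library correlated best with its own number. With the replicate number as a block, 1 of these genes was higher and 2 were lower, since Tbx21 (-0.44, adjusted P = 0.0617) was no longer called; over all genes the block gave 2675 higher and 2547 lower compared with 2525 and 2463. The depth of GFP replicates 2 and 3 limits what can be said of the Hox genes, where 1 count is 0.129 and 0.166 CPM, compared with 0.0339 to 0.0490 CPM in the other 4 libraries.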
